A study of Mus musculus with 9 samples.

Results

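The 10 genes described here are immediate early genes of the growth factor and stress response, most of them transcription factors, measured in cultures of mouse B cell progenitors. They were chosen by symbol: Fos, Fosb, Jun, Junb, Egr1, Egr2, Ier2, Ier3, Atf3 and Dusp1. Each matched 1 of the 23279 gene entries of the expression tables. All 10 were among the 10878 genes that averaged 1 FPKM or more over the libraries and were tested.

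The series holds RNA sequencing of 9 libraries, 3 from wild-type littermates (WT), 3 from mice that overexpress Hmgn1 (HMGN1_OE) and 3 from Ts1Rhr mice. Ts1Rhr mice carry an extra copy of a segment syntenic to the so-called Down syndrome critical region. Hmgn1, which encodes a nucleosome-binding protein, lies in that segment. The series title asks whether the extra copy raises transcription as a whole through HMGN1.

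In every group, marrow cells from animals aged 6 to 8 weeks were freed of red cells, plated in methylcellulose medium with interleukin-7, and collected as pooled colonies after 7 days. The same number of cells was taken for each RNA sample, and synthetic ERCC spike-in RNA was added for scaling per cell. The Hmgn1 mice are labelled C57BL/6 and the Ts1Rhr mice FVB x C57BL/6 F1, while no label names the background of the WT littermates. Strain and genotype therefore cannot be told apart between the mutant groups. The same limit holds for each comparison with WT, since the WT background is not known to match either mutant group. The cell type field of all 9 libraries, WT included, carries the name proB_Ts1Rhr. The labels call each library a biological replicate but do not name the animals behind it, nor the promoter that drives Hmgn1. The p-values thus measure only how far these samples spread, and whether each stands for a separate animal is not stated.

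Immediate early genes are switched on within minutes of a signal without new protein synthesis. Kinases of the MAP kinase family and protein kinase A act on factors already bound at their promoters, mainly serum response factor (SRF) with its ELK partners at CArG boxes and CREB at cyclic AMP response elements (CRE). Their products then drive a later set of genes, and most of their mRNAs decay fast. In the bone marrow, EGR and AP-1 factors act both in B cell progenitors and in macrophages.

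Upstream sequences show what the promoters of these genes share. They come from the RefSeq promoter table on GRCm38.p6, a later build than the mm9 of the expression files. The search covered 250 bases before to 50 bases after each annotated start, and the windows shown end at the start. The table matched 8 of the 10 genes, Egr1 and Ier2 being the others. The CRE core TGACG, searched on both strands, was found for 6 of the 8, namely Fos, Fosb, Junb, Egr2, Atf3 and Dusp1. It occurred in 20.8% of all 32851 promoters of the same length, or in at least 1 promoter of 23.0% of 27025 genes. The full palindrome TGACGTCA, which contains that core on both strands, was found in Dusp1 only, against 1.79% of all promoters and 2.03% of all genes. A CArG box was found in Egr2 only, against 1.63% of all promoters and 1.81% of all genes. The AP-1 motif TGANTCA was found in none of the 8, against 7.81% of all promoters and 8.97% of all genes. One match per gene is shown with its flanks, 5′ to 3′ on the gene's strand, with the motif in capitals (CGTCA is the core read on the other strand):

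Fos, chr12:85473808-85473844, plus strand: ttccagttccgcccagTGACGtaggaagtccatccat

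Fosb, chr7:19310085-19310121, minus strand: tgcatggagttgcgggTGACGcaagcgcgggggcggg

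Junb, chr8:84978834-84978870, minus strand: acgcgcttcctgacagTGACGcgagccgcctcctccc

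Atf3, chr1:191183334-191183356, minus strand: gctattaatagcattaCGTCAgc

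Dusp1, chr17:26508592-26508631, minus strand: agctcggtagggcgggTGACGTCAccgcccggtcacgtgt

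Egr2 (CRE core), chr10:67537798-67537834, plus strand: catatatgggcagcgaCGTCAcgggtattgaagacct

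Egr2 (CArG box), chr10:67537781-67537822, plus strand: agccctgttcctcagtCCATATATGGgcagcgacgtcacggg

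In Egr2 the CArG box and the CRE core lie side by side, so the windows overlap. A match describes these letters and shows neither binding nor use of the site, and no match says only that the letters are absent from this window.

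Values are FPKM, sequenced fragments per kilobase of transcript, scaled to library size, and the sequencing depth behind them is unknown. Per library, 13023 to 14358 genes were above 0 and the spike-ins took 0.20% to 0.343% of the raw FPKM sum. Hmgn1, the gene the design turns on, stood at 60.1, 67.3 and 58.5 raw FPKM in the WT libraries, 77.2, 71.9 and 73.4 in HMGN1_OE and 127, 125 and 126 in Ts1Rhr, so that the groups did not overlap. The labels do not name the species of the overexpressed gene, so how far the mouse Hmgn1 values count its transcripts is unknown. Ts1Rhr replicate 3 stood apart by sex-linked transcripts, with Ddx3y at 41.8 raw FPKM and Xist at 0.443, against at most 0.0642 and at least 94.2 in the other 8 libraries. Raw FPKM are relative to all RNA of a library, and the authors' spike-in normalised FPKM carry a further scaling that moves the level of most genes between libraries.

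The cultures were not pure B cell progenitors by their markers. The B lineage genes were well expressed, with Cd79a, a part of the B cell receptor, at 97.5 to 185 raw FPKM and Pax5, the B lineage commitment factor, at 57.4 to 148. All 14 B progenitor markers were tested. Macrophage genes were expressed too: Lyz2, which encodes lysozyme, reached 11934 to 30708 raw FPKM. The erythroid markers Hbb-b1 and Hba-a1 and the mast cell markers Cma1, Tpsb2 and Mcpt4 were listed at 0 in all 9 libraries. All 7 erythroid markers were under 1 FPKM in every library, but only 5 of the 8 mast cell and basophil markers were. The summed raw FPKM of those 8 reached 4.34 in HMGN1_OE.

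The myeloid content of each library was read from Csf1r, the receptor for macrophage colony-stimulating factor, and Cd68, a lysosomal protein of macrophages. Csf1r stood at 220, 171 and 186 raw FPKM in WT, 122, 190 and 102 in HMGN1_OE, and 108, 100 and 63.2 in Ts1Rhr. Cd68 stood at 314, 202 and 196 in WT, 161, 223 and 117 in HMGN1_OE, and 128, 105 and 103 in Ts1Rhr. All 3 Ts1Rhr libraries lay below all 3 WT libraries for both genes, and HMGN1_OE overlapped both groups. The mean log2 of the pair, called the myeloid level below, was 8.04, 7.54 and 7.58 in WT, 7.13, 7.69 and 6.77 in HMGN1_OE and 6.88, 6.68 and 6.34 in Ts1Rhr. Together the pair took 0.0357% to 0.0903% of all raw FPKM. In bulk RNA, fewer cells of a type and less RNA per cell cannot be told apart.

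Among the FOS and JUN genes, Fos was the most abundant and one of the most variable. The FOS protein binds DNA mainly as a partner of JUN proteins. Fos stood at 124, 67.6 and 92.4 raw FPKM in WT, 41.1, 93.5 and 23.4 in HMGN1_OE, and 46.0, 46.5 and 21.7 in Ts1Rhr. All Ts1Rhr libraries were below all WT libraries, while HMGN1_OE replicate 2 lay inside the WT range and the other two below it. The highest library was 5.71 times the lowest.

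Fosb, a close relative of Fos, was expressed at a lower level per length and spread even wider. It stood at 8.69, 5.85 and 5.13 raw FPKM in WT, 2.31, 5.46 and 1.46 in HMGN1_OE, and 4.61, 2.55 and 0.932 in Ts1Rhr. Again Ts1Rhr did not overlap WT and HMGN1_OE replicate 2 reached the WT values. The ratio of the highest to the lowest library was 9.32, the widest of the 10 genes.

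Jun, the main DNA-binding partner of FOS, varied much less. It stood at 45.4, 40.2 and 40.7 raw FPKM in WT, 38.0, 37.6 and 25.7 in HMGN1_OE, and 36.0, 22.6 and 29.3 in Ts1Rhr. Both mutant groups lay wholly below WT on raw FPKM. On normalised FPKM, HMGN1_OE replicate 2 was at 51.7, within the WT range of 32.9 to 53.3, and neither mutant group stood clear of WT.

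Junb, a JUN relative that can restrain JUN, stood at 43.9, 35.7 and 47.5 raw FPKM in WT, 24.8, 41.0 and 17.6 in HMGN1_OE, and 33.7, 21.3 and 24.3 in Ts1Rhr. Ts1Rhr lay below WT without overlap, and HMGN1_OE held both a library in the WT range and the lowest value of all.

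The EGR genes encode zinc finger factors that bind GC-rich promoters. Egr1 stood at 9.64, 5.39 and 6.99 raw FPKM in WT, 5.46, 6.83 and 2.28 in HMGN1_OE, and 6.73, 3.05 and 1.61 in Ts1Rhr. Egr2, which acts in lymphoid and myeloid differentiation, stood at 9.33, 5.39 and 8.72 in WT, 6.22, 6.48 and 3.41 in HMGN1_OE, and 5.09, 5.60 and 4.42 in Ts1Rhr. For both genes the 3 groups overlapped, with the WT means highest (7.34 ± 2.15 for Egr1 and 7.81 ± 2.12 for Egr2, SD, n = 3).

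Ier2 encodes a nuclear protein and Ier3 a regulator of cell survival. Ier2 stood at 40.5, 40.4 and 50.2 raw FPKM in WT, 27.8, 34.4 and 28.1 in HMGN1_OE, and 43.8, 34.7 and 29.7 in Ts1Rhr. It was the only one of the 10 for which HMGN1_OE lay clear below WT while Ts1Rhr overlapped it, and its spread over the 9 libraries was the smallest (SD 0.30 on the log2 scale). Ier3 stood at 10.3, 4.52 and 5.85 in WT, 7.41, 8.50 and 5.39 in HMGN1_OE, and 5.67, 2.55 and 4.50 in Ts1Rhr. The Ier3 means of HMGN1_OE (7.10 ± 1.58) and WT (6.91 ± 3.05) were close and their libraries overlapped.

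Atf3, a stress-induced factor of the ATF/CREB family, had the highest mean of the 10 genes per length. It stood at 124, 88.0 and 86.7 raw FPKM in WT, 67.3, 83.9 and 52.9 in HMGN1_OE, and 56.4, 45.9 and 62.4 in Ts1Rhr. Both mutant groups lay below WT without overlap. On normalised FPKM this held for Ts1Rhr (53.3 ± 7.29 against 106 ± 45.2 in WT), while HMGN1_OE overlapped WT.

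Dusp1, the phosphatase that switches off the MAP kinases that induce it, stood at 23.7, 14.0 and 17.2 raw FPKM in WT, 6.81, 13.1 and 4.83 in HMGN1_OE, and 10.2, 7.41 and 6.17 in Ts1Rhr. Both mutant groups lay below WT without overlap on raw FPKM. On normalised FPKM HMGN1_OE replicate 2 was at 17.4, above WT replicates 2 and 3.

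**Figure D1:**
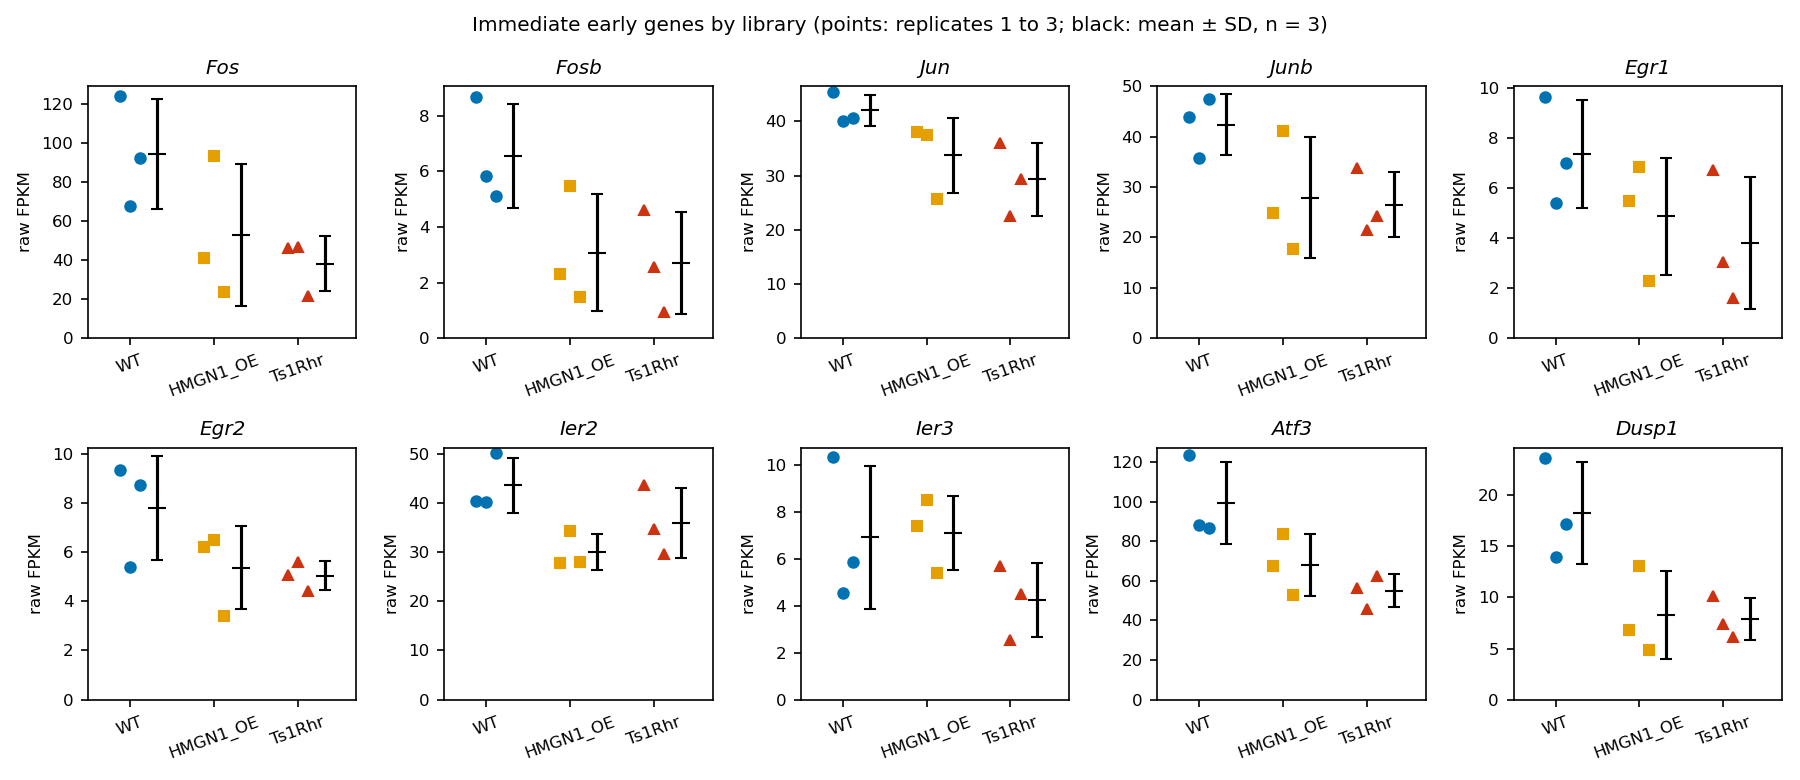
Raw FPKM (linear axis from 0) of the 10 immediate early genes, with 1 point per library and, in black, the mean ± SD of the 3 libraries of each group. WT replicate 1 is the highest point for 8 genes, and HMGN1_OE spans most of the range for Fos, Fosb and Junb.

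Ordered by mean raw FPKM over the 9 libraries, the genes ran Atf3 (74.1), Fos (61.8), Ier2 (36.6), Jun (35.1), Junb (32.2), Dusp1 (11.5), Ier3 (6.08), Egr2 (6.07), Egr1 (5.33) and Fosb (4.11). Neighbours in this order, such as Ier2, Jun and Junb, or Ier3, Egr2 and Egr1, lay close, and whether they differ was not tested. Levels of different genes are compared here per length of transcript.

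The 10 genes varied more between libraries than most. Their median SD over the 9 libraries was 0.54 on the log2 scale, against 0.30 over all tested genes. All 10 lay above the median of all genes, where 50.0% of genes lie by definition. The libraries also took similar places for most of the genes. WT replicate 1 was highest for 8 of the 10 and WT replicate 3 for Junb and Ier2, while WT replicate 1 was highest for 22.0% of all tested genes. HMGN1_OE replicate 3 and Ts1Rhr replicate 3 were each among the 3 lowest libraries for 9 of the 10. HMGN1_OE replicate 2 was among the 3 highest for 6.

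Between Ts1Rhr and WT, all 10 genes had lower mean log2 values in Ts1Rhr, as did 40.1% of all genes on normalised and 48.9% on raw FPKM. None passed the test on the spike-in normalised values. The background there was 0.57% of all genes called by limma at an adjusted p under 0.05. At an unadjusted p under 0.05, 3 of the 10 genes (Fos, Dusp1 and Atf3) were below the threshold, against 19.5% of all genes. Fos differed by -1.40 (log2, SE 0.49, limma adjusted p = 0.148), Dusp1 by -1.07 (SE 0.40, adjusted p = 0.173) and Atf3 by -0.92 (SE 0.33, adjusted p = 0.157). The differences of the others ran from -1.19 for Fosb to -0.29 for Ier2. The median over the 10 was -0.79, and that over all tested genes 0.12.

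On raw FPKM, Atf3 and Dusp1 fell in Ts1Rhr. Atf3 fell by 0.85 (log2, SE 0.20) with a limma adjusted p of 0.0374, and Dusp1 fell by 1.19 (SE 0.33) with an adjusted p of 0.0492. The 2 genes of 10 stand against 8.85% of all genes called in either direction and 4.56% called lower. Fos (-1.35, SE 0.45, adjusted p = 0.0760), Jun (-0.55, adjusted p = 0.0931) and Fosb (-1.47, adjusted p = 0.101) did not pass limma's threshold. At an unadjusted p under 0.05 there were 7 of the 10, against 30.9% of all genes. In 6 of the 10 genes all Ts1Rhr libraries lay below all WT libraries, where 18.5% of all genes did so. On normalised FPKM 4 of the 10 did (Fos, Junb, Atf3 and Dusp1), against 8.43% of all genes. Without any one of the WT or Ts1Rhr libraries 0 of the 10 genes were called, while their median difference stayed between -0.93 and -0.67. Few genes of any kind were then called lower, 1 or 2 of 10878 without WT replicate 1 or 3 or Ts1Rhr replicate 2 or 3, 217 without WT replicate 2 and 165 without Ts1Rhr replicate 1.

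The other cell types moved with this comparison. All 19 tested macrophage and monocyte markers had lower means in Ts1Rhr than in WT on both tables. Limma called 9 of them on raw FPKM, where 4.56% of all genes were called lower, and 0 on normalised FPKM. Their summed raw FPKM was 26512 to 39824 in WT, 15312 to 31808 in HMGN1_OE and 17076 to 19228 in Ts1Rhr, and Cd163 was under 1 FPKM everywhere. The 9 tested neutrophil markers were all lower too, with none called, at summed raw FPKM of 177 to 307 in WT, 73.3 to 253 in HMGN1_OE and 79.8 to 198 in Ts1Rhr. Of the stromal markers 6 of 7 fell in Ts1Rhr on both tables, and 5 fell in HMGN1_OE on normalised and 2 on raw FPKM. Among all 10878 genes, limma called 16 lower in Ts1Rhr on normalised and 496 on raw FPKM. In HMGN1_OE it called 9 lower on normalised and 4 on raw FPKM. Their summed raw FPKM was 95.7 to 140 in WT, 6.18 to 17.7 in HMGN1_OE and 7.37 to 23.6 in Ts1Rhr. Sparc, a matrix protein of stromal cells, stood at 11.0 to 18.7 raw FPKM in WT and at most 2.43 in the mutant groups. The 14 B progenitor markers summed to 2447 to 3177 in WT, 3238 to 4495 in HMGN1_OE and 3224 to 3932 in Ts1Rhr. Of these markers 4 rose in Ts1Rhr on raw and 0 on normalised FPKM, where 467 and 46 of all 10878 genes were called higher. The part of the macrophage and stromal RNA in the differences of the immediate early genes was not tested apart from the fits with the myeloid level given below.

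Between HMGN1_OE and WT, 9 of the 10 genes had lower mean log2 values in HMGN1_OE, as did 27.3% of all genes on normalised and 48.3% on raw FPKM. Ier3 had a higher one (0.31, SE 0.39, on normalised FPKM). None passed limma's test on either table, where 0.0919% of all genes were called on normalised and 0.0368% on raw FPKM. At an unadjusted p under 0.05 there was 1 gene of 10 on normalised FPKM, Dusp1, against 11.7% of all genes, and 6 on raw FPKM, against 14.6%. Dusp1 differed by -1.05 (SE 0.40, limma adjusted p = 0.339) on normalised and by -1.23 (SE 0.33, adjusted p = 0.273) on raw FPKM. Fos differed by -0.89 (SE 0.49, adjusted p = 0.484) and by -1.03 (SE 0.45, adjusted p = 0.330). The median over the 10 was -0.44 on normalised FPKM, where all genes had 0.21, and -0.62 on raw FPKM, where all genes had 0.01. HMGN1_OE lay below WT without overlap for Jun, Ier2, Atf3 and Dusp1 on raw FPKM, 4 of 10 against 8.25% of all genes, and for none on normalised FPKM, against 0.8%. The comparisons with WT share the WT libraries, so they are not independent of each other.

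Between Ts1Rhr and HMGN1_OE no gene at all was called by limma on either table (0.0% background). At an unadjusted p under 0.05, there were 0 of the 10 genes on normalised FPKM, against 4.37% of all genes, and on raw FPKM only Ier3, against 8.85%. Ier3 was the gene with the largest difference of the 10, -0.77 on normalised FPKM (SE 0.39, adjusted p = 0.988) and -0.78 on raw FPKM (SE 0.34, adjusted p = 0.552). Lower mean log2 values in Ts1Rhr were found for 9 of the 10 on normalised FPKM, against 62.5% of all genes, and for 8 on raw FPKM, against 49.7%. The median difference of the 10 genes was -0.27 on normalised FPKM, where all genes had -0.09, and -0.22 on raw FPKM, where all genes had 0.00. For none of the 10 did the groups separate without overlap, where 5.99% of all genes were lower in Ts1Rhr on raw FPKM and 6.6% on normalised FPKM. The normal 95% interval of the Fos difference reached from -1.47 to 0.45 on normalised FPKM, so neither sign was excluded at this number of libraries.

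**Figure D2:**
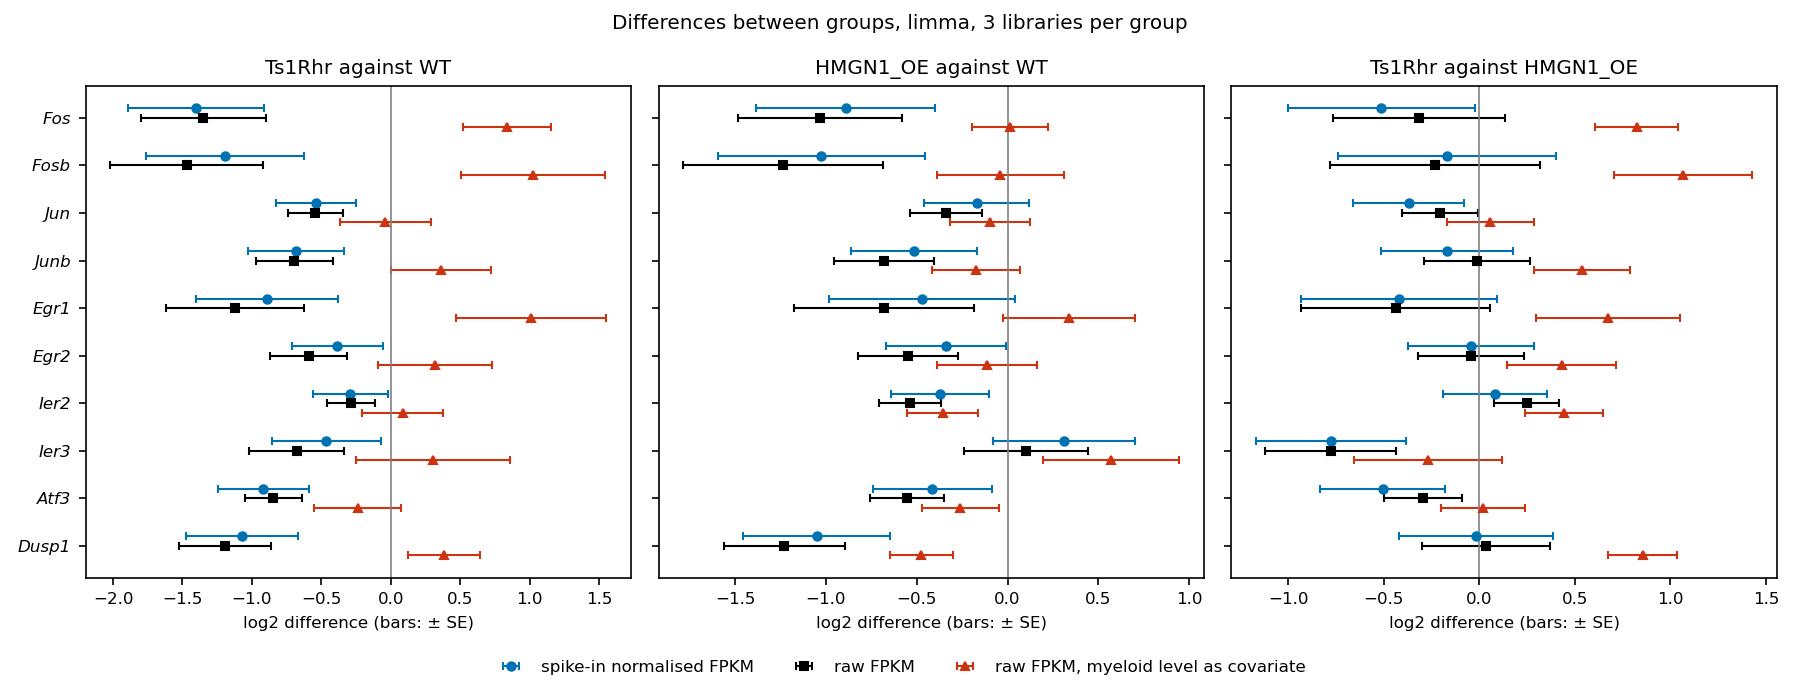
Log2 differences between groups with their SE (limma, 3 libraries per group) on spike-in normalised FPKM, raw FPKM, and raw FPKM with the myeloid level as covariate. Against WT, all 10 genes are negative in Ts1Rhr without the covariate, and with it 8 of them are positive, none passing the test.

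Over the 9 libraries, the level of the immediate early genes followed the myeloid level. All 10 correlations were positive, with a median Pearson r of 0.84 against -0.02 over all tested genes. By an exact two-sided permutation test adjusted over all 10878 genes, 6 of the 10 passed, where 9.18% of all genes were called as positively related. These were Fos (r = 0.927, adjusted permutation p = 0.0167), Atf3 (r = 0.891, adjusted p = 0.0255), Fosb (r = 0.890, adjusted p = 0.0247), Dusp1 (r = 0.882, adjusted p = 0.0302), Egr1 (r = 0.867, adjusted p = 0.0237) and Jun (r = 0.815, adjusted p = 0.0424). Junb (r = 0.813, adjusted permutation p = 0.0588), Egr2 (r = 0.783, adjusted p = 0.0597), Ier3 (r = 0.686, adjusted p = 0.118) and Ier2 (r = 0.524, adjusted p = 0.285) did not. At an unadjusted permutation p under 0.05 there were 9 of 10, every gene but Ier2, against 35.8% of all genes. The permutations shuffled all 9 libraries without regard to group, and the myeloid levels of WT and Ts1Rhr did not overlap. Their p-values therefore do not separate a relation to the myeloid level from a difference between the groups.

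The relation was positive for all 10 by ranks too. Spearman's rho was 0.883 for Fos, 0.867 for Fosb, 0.850 for Jun, 0.867 for Junb, 0.900 for Egr1, 0.817 for Egr2, 0.417 for Ier2, 0.850 for Ier3, 0.833 for Atf3 and 0.833 for Dusp1. Fos, Fosb, Junb and Egr1 passed the adjusted exact permutation test (p = 0.0399, 0.0471, 0.0471 and 0.0343), 4 of 10 against 5.04% of all genes.

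The correlations stayed positive without the libraries at the ends of the range, while the calls did not hold. WT replicate 1, with the highest myeloid level, and Ts1Rhr replicate 3, with the lowest, lay farthest from the median. Without both, r was 0.846 for Fos, 0.752 for Fosb, 0.810 for Jun, 0.839 for Junb, 0.712 for Egr1, 0.648 for Egr2, 0.400 for Ier2, 0.555 for Ier3, 0.980 for Atf3 and 0.816 for Dusp1. The median over the 10 was 0.78. None of the 10878 genes was then called by the adjusted permutation test, with a smallest adjusted p of 0.120, so the count of 0 among the 10 says nothing about them. The same holds without WT replicate 1 alone, where the smallest adjusted permutation p of all genes was 0.0630, the median r of the 10 was 0.80 and Fos had r = 0.898. Without WT replicate 2 there were 2 of the 10 among 507 positively related genes, and without WT replicate 3 there were 3 among 545. Without any other library 4 to 6 of the 10 were called, among 618 to 1018 genes.

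**Figure D3:**
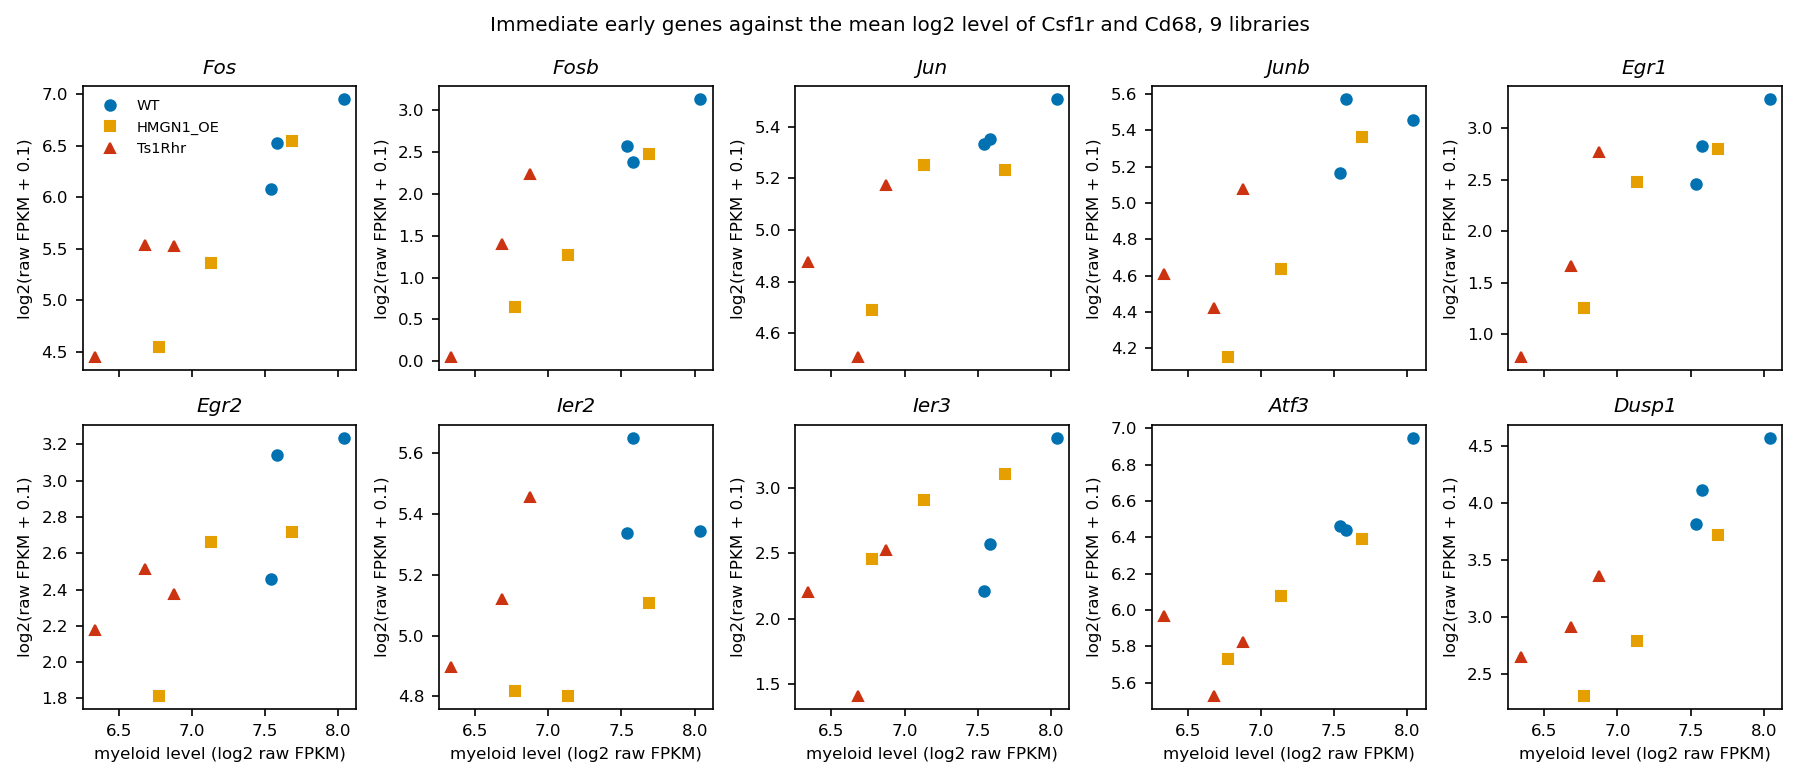
Each gene's log2(raw FPKM + 0.1) against the myeloid level (mean log2 raw FPKM of Csf1r and Cd68), 1 point per library and 1 symbol per group. Fos and Atf3 lie close to a line (r of 0.927 and 0.891 over 9 libraries), and Ier2 is the most scattered (r = 0.524).

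The relation was also present between libraries of the same group. In a limma fit with a mean per group and a slope on the myeloid level, all 10 slopes were positive, with a median of 0.94 log2 units per log2 unit of the myeloid level against 0.00 over all genes. Fos passed the test, at a slope of 2.01 (SE 0.24, limma adjusted p = 0.0349). It was 1 of 3 genes called in the whole table (0.0276%). Dusp1 had a slope of 1.45 (SE 0.20, adjusted p = 0.0710), Fosb of 2.29 (SE 0.40, adjusted p = 0.126) and Egr1 of 1.96 (SE 0.42, adjusted p = 0.193). The other slopes were 0.97 for Junb, 0.90 for Ier3, 0.84 for Egr2, 0.56 for Atf3, 0.46 for Jun and 0.34 for Ier2. At an unadjusted p under 0.05 there were 7 of the 10, against 11.8% of all genes. The Fos call was lost on leaving out any library except WT replicate 3, although its slope stayed between 1.85 and 2.19 over all 9 omissions and the whole table held 0 to 3 calls in them. It was also lost with the replicate numbers as a block, where 0 of all genes were called. On normalised FPKM, where library-wide scaling enters both sides of the relation, 7 of the 10 were called, against 14.7% of all genes.

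Slopes above 1 mean that Fos, Fosb, Egr1 and Dusp1 differed between libraries of a group by a larger factor than Csf1r and Cd68 did. In HMGN1_OE, for example, replicate 2 against replicate 3 had 93.5 against 23.4 raw FPKM of Fos, and 190 against 102 of Csf1r.

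In fits with the myeloid level as a covariate, the sign turned for most of the 10 genes in the comparisons that involve Ts1Rhr, but not between HMGN1_OE and WT on raw FPKM. On raw FPKM, Ts1Rhr against WT then gave 0.84 for Fos (SE 0.31), 1.03 for Fosb, 1.01 for Egr1, 0.38 for Dusp1 and -0.24 for Atf3, with a median over the 10 of 0.34. None of the 10 passed limma's test, nor did any other gene (0.0%). HMGN1_OE against WT had a median of -0.10, with 7 of the 10 still negative, Dusp1 at -0.47 (SE 0.18) among them, and none called (0.0276% of all genes). In Ts1Rhr against HMGN1_OE the median was 0.49, with none called (0.0%). The myeloid levels of WT (7.54 to 8.04) and Ts1Rhr (6.34 to 6.88) did not overlap. The fit for that comparison therefore reaches across a gap that no library fills, and genotype and myeloid level cannot be told apart in it.

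**Figure D4:**
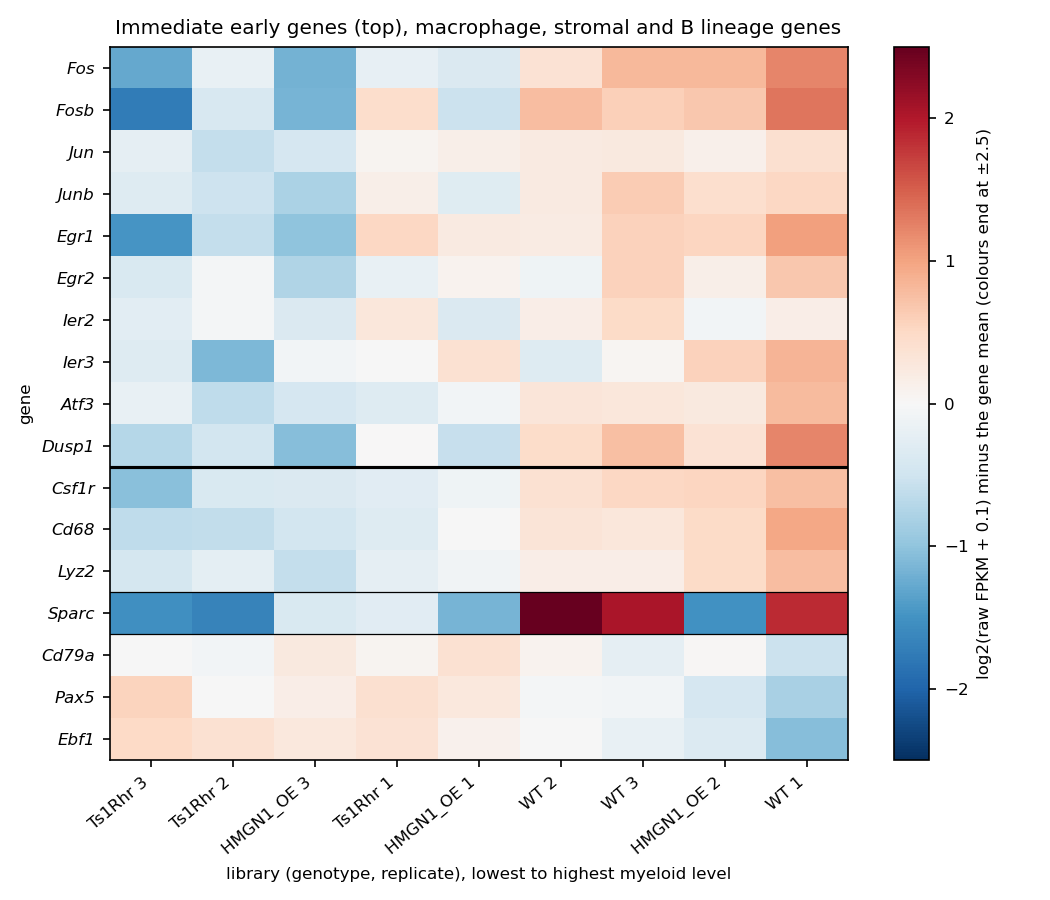
Log2(raw FPKM + 0.1) of each gene minus its mean over the 9 libraries, with libraries ordered from the lowest (Ts1Rhr replicate 3) to the highest (WT replicate 1) myeloid level. The values of most immediate early genes rise to the right as those of Csf1r, Cd68 and Lyz2 do. The B lineage genes Pax5 and Ebf1 run the other way, and Sparc is high in the 3 WT libraries alone.

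Other macrophage markers and the markers of other cell types were set against the myeloid level too. Lyz2 had r = 0.936 with the myeloid level (adjusted permutation p = 0.0160). Ebf1, a factor that specifies the B lineage, had r = -0.916 and Pax5 r = -0.862, while Cd79a had r = -0.507 (adjusted permutation p = 0.306). Of the 14 B progenitor markers 13 had a negative r and 1 a positive one. The permutation test called 5 of them as negatively related, where 946 of all 10878 genes were. All 19 macrophage and monocyte markers had a positive r, with 15 called, of which Csf1r and Cd68 are related to the myeloid level by its definition. All 9 neutrophil markers had a positive r too (median 0.75, 3 called), as had all 7 stromal markers (median 0.59, none called). Over all tested genes, 49.0% had a positive r and 9.18% were called as positively related.

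The genes whose levels over the 9 libraries were most like Fos were Rgs1 (r = 0.983), Sash1 (0.982), Rtn4 (0.980), Igf1 (0.977) and Galc (0.975). Rgs1, a regulator of G protein signalling, ran from 81.0 to 302 raw FPKM. For comparison, Fos had r = 0.935 with Csf1r and 0.887 with Cd68, 0.944 with Dusp1, 0.943 with Fosb, 0.785 with Atf3, 0.722 with Jun and 0.496 with Ier3. The genes most like Egr1 were Ms4a6c (0.964), 1810011H11Rik (0.963), Fbxo18 (0.961), Nckipsd (0.960) and C1qc (0.960). C1qc, a complement subunit made by macrophages, ran from 17.3 to 69.7 raw FPKM. These are correlations over the same 9 libraries, which share their myeloid level, and they are given as a description.

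A wider list of 40 other immediate early and early response genes had 34 tested members. Fosl1, Egr3, Nr4a2, Nr4a3 and Arc were under 1 FPKM in every library. In Ts1Rhr against WT, 23 of the 34 had lower means on normalised FPKM, against 40.1% of all genes, with a median of -0.33, and limma called 0 of them (0.57% of all genes). On raw FPKM 27 had lower means, against 48.9% of all genes, with a median of -0.54. Of these, 5 fell, against 4.56% of all genes: Klf4, Dusp4, Socs3, Plk2 and Id1. In HMGN1_OE against WT, and in Ts1Rhr against HMGN1_OE, limma called none of the 34 on either table. Of all genes, it called 0.0919% on normalised and 0.0368% on raw FPKM in the former comparison and 0.0% in the latter. These counts therefore say little about the list.

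Id1, an inhibitor of basic helix-loop-helix factors, had the largest difference in that list. It stood at 18.9, 22.7 and 17.3 raw FPKM in WT, 17.5, 15.8 and 5.90 in HMGN1_OE, and 7.98, 4.62 and 1.88 in Ts1Rhr, so that Ts1Rhr lay below WT without overlap. It fell by 2.21 on raw FPKM (SE 0.48, limma adjusted p = 0.0325) and had -2.08 on normalised FPKM (adjusted p = 0.0590). Its relative Id3 was the most abundant gene of the list, at a mean of 405 raw FPKM, and had -0.65 on raw FPKM (limma adjusted p = 0.115).

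Dusp4, a nuclear MAP kinase phosphatase like Dusp1, stood at 8.90, 7.74 and 8.89 raw FPKM in WT and at 3.55, 5.05 and 3.88 in Ts1Rhr. It fell by 1.03 on raw FPKM (limma adjusted p = 0.0414). Klf4, a Krüppel-like factor of monocytes, fell by 1.13 (limma adjusted p = 0.0333), Socs3, a feedback inhibitor of cytokine signalling, fell by 1.05 (limma adjusted p = 0.0350), and the kinase gene Plk2 fell by 0.86 (limma adjusted p = 0.0374). Dusp2, a phosphatase abundant in lymphocytes, had 0.07 (limma adjusted p = 0.816) at a mean of 72.4 raw FPKM.

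Other genes of the list had high levels and differences that did not pass on raw FPKM. Gadd45g, a growth arrest gene, had -1.20 (limma adjusted p = 0.0541), Zfp36, whose protein destabilises mRNAs with AU-rich elements, had -0.72 (adjusted p = 0.0724) and the kinase gene Sgk1 had -0.58 (adjusted p = 0.10). With the myeloid level, 11 of the 34 were positively related by the adjusted permutation test, against 9.18% of all genes, and 1 negatively. Zfp36 had r = 0.954, Gadd45g 0.936, Plk2 0.893 and Id1 0.892, while Dusp2 had r = -0.218.

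Of the MAP kinase and SRF pathway genes upstream, 23 were tested, and their medians were near those of all genes: 0.04 in Ts1Rhr against WT on normalised FPKM and 0.05 on raw FPKM. Limma called none on normalised FPKM in any comparison. Of all genes, 0.57% were called there in Ts1Rhr against WT, 0.0919% in HMGN1_OE against WT and 0.0% in Ts1Rhr against HMGN1_OE. On raw FPKM, Rps6ka4, a kinase that acts on CREB and histone H3, fell in Ts1Rhr by 0.76 (SE 0.17, adjusted p = 0.0325), with r = 0.927 against the myeloid level. This was 1 of 23 genes, where 4.56% of all genes were called lower. Mapk3 (ERK1) had -0.69 on raw FPKM (limma adjusted p = 0.0586). Map2k1, the MAP kinase kinase above it, had -0.20 and Nras -0.05. Mapk8 (JNK1) had 0.46, the CREB kinase gene Rps6ka5 had 0.75 and the SRF partner Elk4 had 0.67, none of them called. With the myeloid level 4 of the 23 were positively related, against 9.18% of all genes: Map2k1, Mapk3, Rps6ka1 and Rps6ka4.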

How the data were processed

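The authors deposited 2 tables of FPKM for the 9 libraries, raw and normalised. Per the submitters' processing notes, HISAT, Cufflinks 2.0.0 and build mm9 were used. Settings, annotation, strand use and the making of the normalised FPKM are not given in the sources consulted, so reads of overlapping antisense transcripts cannot be told apart. The normalised FPKM are called spike-in normalised because the labels' protocols say the spike-ins were added for scaling per cell. Depth is unknown, since steps between low values were shared by too few genes to place it, and count tests were left out.

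Of 23398 entries, 92 spike-ins and 27 with calendar dates as symbols were left out, and 10878 genes averaging 1 raw FPKM or more were tested. Raw values entered as log2(FPKM + 0.1) and normalised values as log2, since unexpressed genes already stood near 0.1 there. Folds on this scale understate changes of low genes. Groups were compared with limma 3.58.1 (R 4.3.3; intensity trend), 1 fit over all 9 libraries, two-sided p and Benjamini-Hochberg adjustment over all 10878 genes (threshold 0.05). Normalised FPKM were the primary table. Correlations with the myeloid level used an exact permutation test on raw FPKM (numpy 2.4.6, Python 3.11.15), adjusted likewise. The scripts were tested on simulated data.

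Alternatives were the other table, scaling, pseudocount, filter, spread model, myeloid covariate, replicate block and leaving out each library. The deviations of same-numbered libraries from their group means correlated at 0.0698 at most, so numbers were not taken as pairs. The genes and lists were chosen with earlier results of these data known. Besides the 10 genes, the text names listed genes that were called, the 4 most abundant and the 4 with the largest Ts1Rhr difference per list, the 5 genes most like Fos and Egr1, and fixed markers. Others that are named (the sex-linked pair, genes under 1 FPKM or at 0, and Rps6ka1) were chosen after their values were seen. Hras was not matched by symbol, and some listed genes are not reported here by name.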

Additional observations from a re-analysis of the deposited data

How the results depend on the processing

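On spike-in normalised FPKM none of the 10 genes was called in any of the 3 comparisons, and that count stayed at 0 without any single library. In Ts1Rhr against WT it was 2 on raw FPKM with a pseudocount of 0.1 and 2 with 1, and 1 with the normalised libraries shifted to the same median. Of all 10878 genes, 496, 488 and 442 were called lower in these settings. Raw FPKM without 1 library, a setting chosen after seeing the data, gave 0 without any WT or Ts1Rhr library (1 to 217 of all 10878 genes were then called lower), 1 without HMGN1_OE replicate 1 (360 of all) and 3 without HMGN1_OE replicate 2 or 3 (529 and 728). The number of genes called as related to the myeloid level, 6, was 0 without the 2 farthest libraries and ranged from 0 to 6 without 1 library. No gene at all was called without these 2 or without WT replicate 1. The number with a called slope within groups was 1, where 3 of all 10878 genes were called. It was 7 on normalised FPKM, where 14.7% of all genes were called as positive. With the mean of all macrophage markers it was 0, where 0 of all genes were called. Without 1 library it was 0 or 1, with 0 to 3 of all genes called. The cause of these changes was not tested.

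Same-numbered libraries of different groups correlated at -0.13 to 0.07 in their deviations from the group means, and unlike-numbered ones at -0.21 to 0.23. The numbers were therefore not taken as pairs. The labels tie equal numbers to no litter, batch or day, and these correlations cannot show whether one was shared. With the replicate block 0 of the 10 genes were called in each comparison on normalised FPKM and 0 on raw FPKM in Ts1Rhr against WT. In Ts1Rhr against WT, 72 of all genes were called higher and 47 lower on normalised FPKM, and 147 and 167 on raw FPKM. On normalised FPKM, 4 were called higher and 11 lower in HMGN1_OE against WT, and 1 and 4 in Ts1Rhr against HMGN1_OE. For the slope within groups 0 of the 10 were called, but so were 0 of all genes, so that count says nothing about the 10.

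Only differences of the opposite sign are listed from here on. Fits with the myeloid level as covariate on normalised FPKM moved the whole table. The medians over all genes were 0.62 in Ts1Rhr against WT, 0.45 in HMGN1_OE against WT and 0.17 in Ts1Rhr against HMGN1_OE. In these fits 0 of all 10878 genes were called by limma in any comparison, the 10 genes included. On raw FPKM 7 of the 10 genes stayed negative in HMGN1_OE against WT. With the myeloid level as covariate on normalised FPKM, the differences in Ts1Rhr against WT were 1.02 for the median, 1.38 for Fos, 1.70 for Fosb, 0.52 for Jun, 0.93 for Junb, 1.71 for Egr1, 1.03 for Egr2, 0.63 for Ier2, 1.02 for Ier3, 0.30 for Atf3, 1.04 for Dusp1, 0.83 for Zfp36, 0.48 for Dusp4, 0.91 for Gadd45g, 0.78 for Sgk1, 0.34 for Plk2, 0.11 for Id1, 0.69 for Id3, 0.33 for Mapk3, 0.63 for Map2k1, 0.55 for Nras and 0.32 for Rps6ka4. With the myeloid level as covariate on normalised FPKM, the differences in HMGN1_OE against WT were 0.34 for the median, 0.44 for Fos, 0.36 for Fosb, 0.34 for Jun, 0.26 for Junb, 0.77 for Egr1, 0.34 for Egr2, 0.070 for Ier2 and 0.17 for Atf3. With the myeloid level as covariate on normalised FPKM, the differences in Ts1Rhr against HMGN1_OE were 0.68 for the median, 0.94 for Fos, 1.34 for Fosb, 0.18 for Jun, 0.67 for Junb, 0.93 for Egr1, 0.69 for Egr2, 0.13 for Atf3 and 1.08 for Dusp1. With that covariate on raw FPKM, the differences in Ts1Rhr against WT were 0.34 for the median, 0.84 for Fos, 1.03 for Fosb, 0.36 for Junb, 1.01 for Egr1, 0.32 for Egr2, 0.085 for Ier2, 0.30 for Ier3, 0.38 for Dusp1, 0.30 for Zfp36, -0.16 for Dusp2, 0.30 for Gadd45g, 0.27 for Sgk1, 0.27 for Id3, 0.086 for Map2k1, 0.017 for Nras, -0.040 for Mapk8 and -0.030 for Elk4. With that covariate on raw FPKM, the differences in HMGN1_OE against WT were 0.013 for Fos and 0.34 for Egr1. With that covariate on raw FPKM, the differences in Ts1Rhr against HMGN1_OE were 0.49 for the median, 0.82 for Fos, 1.07 for Fosb, 0.056 for Jun, 0.54 for Junb, 0.67 for Egr1, 0.43 for Egr2, 0.021 for Atf3 and 0.86 for Dusp1. On raw FPKM, the difference in Ts1Rhr against HMGN1_OE was 0.035 for Dusp1. On raw FPKM with a pseudocount of 1, the difference in Ts1Rhr against HMGN1_OE was 0.023 for Dusp1. With libraries shifted to the same median, the difference in Ts1Rhr against WT was -0.13 for Dusp2. With libraries shifted to the same median, the differences in Ts1Rhr against HMGN1_OE were 0.029 for Egr2 and 0.055 for Dusp1. With 1 spike-in factor per library on raw FPKM, the difference in Ts1Rhr against WT was 0.12 for Nras. With 1 spike-in factor per library on raw FPKM, the differences in Ts1Rhr against HMGN1_OE were 0.087 for Junb, 0.055 for Egr2 and 0.13 for Dusp1. On raw FPKM with the replicate block, the difference in Ts1Rhr against HMGN1_OE was 0.035 for Dusp1. Without 1 library at a time, the differences in Ts1Rhr against WT ranged over -0.20 to 0.17 for Dusp2 and -0.24 to 0.034 for Nras. Without 1 library at a time, the differences in HMGN1_OE against WT ranged over -0.41 to 0.052 for Jun. Without 1 library at a time, the differences in Ts1Rhr against HMGN1_OE ranged over -0.58 to 0.22 for the median, -1.03 to 0.18 for Fos, -0.77 to 0.49 for Fosb, -0.48 to 0.31 for Junb, -1.06 to 0.15 for Egr1, -0.32 to 0.26 for Egr2, -0.12 to 0.34 for Ier2 and -0.33 to 0.53 for Dusp1.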
